A study of Caenorhabditis elegans with 22 samples.

Results

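The genes described here encode replacement histones and linker histones of *C. elegans*: 4 genes for the H3 variant H3.3 (*his-71*, *his-72*, *his-74* and *his-69*), 4 genes for linker histone H1 (*his-24*, *hil-2*, *hil-3* and *hil-4*) and *htz-1*, the gene for the H2A variant H2A.Z. These 9 genes were chosen by their WormBase names and matched to the gene identifiers of the tables, which hold 20392 genes in all, and all 9 were found. They lie on chromosomes X (*his-71*, *his-24* and *hil-3*), III (*his-72* and *his-69*), V (*his-74* and *hil-4*) and IV (*hil-2* and *htz-1*) in the WBcel235 annotation.

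Bulk RNA from cells sorted out of dissociated L3 larvae was sequenced in 22 libraries that form 11 groups of 2. Body wall muscle was collected as cells carrying the myo-3p::RFP reporter of the gwIs4 array from N2 (the wild-type strain), *met-2(n4256)*, *set-25(n5021)* and *met-2(n4256) set-25(n5021)* animals, and the RFP-negative cells of N2 form the non-muscle group, although their tissue label still reads body wall muscle. Seam cells, which are stem-like cells of the lateral epidermis, were sorted from the same 4 genotypes as cells positive for scm::gfp and for ajm-1::mCherry, and all seam groups carry both reporters. The remaining pair of groups is muscle from animals whose own *met-2* gene carries met-2::degron::3xFLAG::NeonGreen and that express the TIR1 auxin receptor from the *eft-3* promoter in all tissues, grown from L1 to L3 with or without auxin. TIR1 directs degron-tagged proteins to degradation when auxin is present, so MET-2 is removed in every tissue and not in muscle alone. MET-2 deposits mono- and dimethylation on lysine 9 of histone H3 (H3K9me), and SET-25 can carry it to trimethylation. Each strain is a single line, every sample pools cells of many larvae, and DRAQ7 staining was used to leave out dead cells.

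Canonical H3 and H2A are made in S phase and are placed on newly copied DNA, whereas H3.3 and H2A.Z are made and exchanged throughout the cell cycle and therefore supply non-dividing cells such as body wall muscle. H3.3 is placed with the help of chaperones such as HIRA-1 and marks active chromatin, and H2A.Z is exchanged into nucleosomes near promoters by SWR1-type remodellers. Linker histones bind the DNA that enters and leaves the nucleosome and help chromatin fibres to fold. HIS-24 is the best studied H1 of *C. elegans* and is known for a part in silencing in the germ line.

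Libraries held 11883702 to 24752059 counts, and a single count stood for 0.0404 to 0.0841 CPM, the usual scale for a gene's count relative to the total count of its library. Sorting was visible in the marker genes: the summed CPM of 10 body wall muscle genes was 109511 to 139823 in muscle libraries, against 16205 to 19799 in N2 non-muscle cells and 2854 to 4797 in seam libraries. The sum over 10 seam cell genes was 2550 to 4759 CPM in seam libraries and 59.2 to 91.6 CPM in muscle libraries. Transcripts of *met-2* were still counted in both *met-2* muscle libraries (26.0 and 27.3 CPM, against 42.8 and 46.5 in N2) and in both *met-2* seam libraries (14.0 and 15.9, against 39.3 and 37.0). For *set-25* the values were 5.21 and 7.68 CPM in *set-25* muscle against 10.8 and 9.74 in N2, and 17.1 and 17.3 CPM in *set-25* seam cells against 33.1 and 30.5 in N2. The double mutant libraries went against their label in part. In muscle *set-25* stood at 11.6 CPM in double mutant replicate 1, above both N2 libraries, and at 4.11 in replicate 2, and *met-2* at 40.9 and 35.9 CPM, below N2 by less than in the *met-2* single mutant. In double mutant seam cells *met-2* (22.1 and 20.3 CPM) and *set-25* (21.3 and 19.1) were below both N2 libraries. Libraries are named by their labels throughout. Counts over a whole gene do not show whether reads come from the altered stretch of an allele, so these values check the labels in part only. Since auxin removes the protein, *met-2* RNA checks nothing in the degron groups.

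The N2 libraries give the ground state of the family, and levels of different genes are compared per length, as CPM per kilobase of exon (RPKM). In N2 muscle the linker histone genes *hil-3* and *his-24* had the highest levels, at 43.2 ± 0.155 and 33.1 ± 0.455 RPKM (SD, n = 2 here and below). The H3.3 genes *his-71* (23.5 ± 1.97 RPKM) and *his-72* (15.8 ± 2.64) came next, ahead of *hil-2* (9.21 ± 0.797), *hil-4* (4.73 ± 0.311) and *htz-1* (3.84 ± 0.264). At the bottom, *his-74* had 0.447 ± 0.290 RPKM and *his-69* had no count in either library. N2 seam cells had higher RPKM values for each of the 9 genes: *his-24* led at 934 ± 137, followed by *hil-3* (447 ± 48.9), *hil-2* (339 ± 33.9) and *his-72* (310 ± 2.47). Among the seam values, *htz-1* (127 ± 5.53 RPKM) and *his-71* (120 ± 3.69) differed by less than the sum of their SDs, and *hil-4* (13.4 ± 2.60), *his-74* (4.58 ± 2.56) and *his-69* (1.77 ± 0.0228) lay far lower. Muscle and seam cells come from separate tables and experiments, so this difference in level was not tested.

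Within N2, sorted muscle had lower levels than the RFP-negative cells for 6 of the 8 genes that passed the low-count filter, where a gene counts as called at an adjusted p under 0.01 with a change over 2-fold. Over all genes tested in this comparison 32.6% were called, and 23.4% of all genes were called lower in muscle. The low-count filter removed *his-69*, which had 9 and 16 counts in the non-muscle libraries and none in N2 muscle.

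All 4 H1 genes among the members were called lower in muscle. The gene *hil-4* stood at 4.40 and 4.83 CPM in N2 muscle and at 462 and 471 CPM in non-muscle cells, a fitted log2 difference of -5.16 ± 0.186 (SE, edgeR adjusted p = 3.82e-05). For *hil-2* the values were 7.55 and 8.53 CPM in muscle and 378 and 401 CPM outside it (-4.10 ± 0.184, edgeR adjusted p = 3.82e-05). Neither gene had any overlap between the groups, and both were among the highest members outside muscle. Levels of *his-24* were 30.3 and 29.7 CPM in muscle against 261 and 269 CPM (-1.64 ± 0.160, edgeR adjusted p = 0.000329), and those of *hil-3* were 38.0 and 37.8 CPM against 217 and 184 CPM (-0.89 ± 0.159, edgeR adjusted p = 0.00403). Among these 4 genes composition differed as well as amount. In the 2 N2 muscle libraries *hil-3* made up 48.1 and 47.5% and *his-24* 37.2 and 36.2% of the RPKM summed over the 4 genes. In non-muscle cells *hil-4* (32.9 and 33.4%) and *hil-2* (30.0 and 31.7%) led these 4. Other H1 genes lie outside this sum: *hil-5* had a mean of 893 CPM in non-muscle cells and 10.8 in N2 muscle. The gene *hil-1* went the other way, at 0.591 and 3.10 CPM. The call of *hil-3* was the least secure. Its fitted change was under 2-fold, and the call was lost with the fold threshold on the fitted value. It passed on library totals with the pseudocount (-2.38), a scale on which the median gene was itself lower in muscle. The call was also lost without N2 muscle replicate 1 or 2 (fitted -0.92 and -0.88) or without non-muscle replicate 1 (-0.78).

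The H2A.Z gene *htz-1* was counted at 3.49 and 3.85 CPM in N2 muscle and at 64.9 and 69.4 CPM in non-muscle cells (-2.69 ± 0.280, edgeR adjusted p = 0.000431). Among the H3.3 members only *his-74* was called. It had 2 and 5 counts in muscle (0.14 and 0.377 CPM) and 465 and 342 counts outside it (31.2 and 27.5 CPM). The fitted log2 difference was -5.32 ± 0.611 (edgeR adjusted p = 0.000675). Outside the members, the H3.3 gene *his-70* was also lower, with means of 0.0349 CPM in N2 muscle and 15.9 in non-muscle cells. The other tested H3.3 members were not called: *his-72* had 8.80 and 11.2 CPM in muscle and 40.4 and 56.2 CPM outside it (-0.78 ± 0.314, edgeR adjusted p = 0.0689), and *his-71* had 13.2 and 14.9 CPM against 19.9 and 23.9 CPM (adjusted p = 0.0473). On library totals alone *his-72* was called lower in muscle (-2.27, edgeR adjusted p = 0.00146). For *his-71* even the sign depends on scaling, at 0.86 ± 0.306 in the fit with TMM factors and -0.62 on library totals with the pseudocount, because the median gene differed by -1.73 (log2) on library totals in this comparison. The fitted values take up part of that shift (median of all genes -0.57). Germline genes were also lower in muscle: all 10 germline markers were called, with sums of 27.6 to 42.5 CPM in N2 muscle and 2295 to 3183 CPM in non-muscle cells, and 13 of 14 S phase genes were called lower. Whether germ cells or dividing cells in the non-muscle sort carry the histone signal was not tested, and in bulk samples fewer cells of a type and less RNA per cell cannot be told apart.

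**Figure D1:**
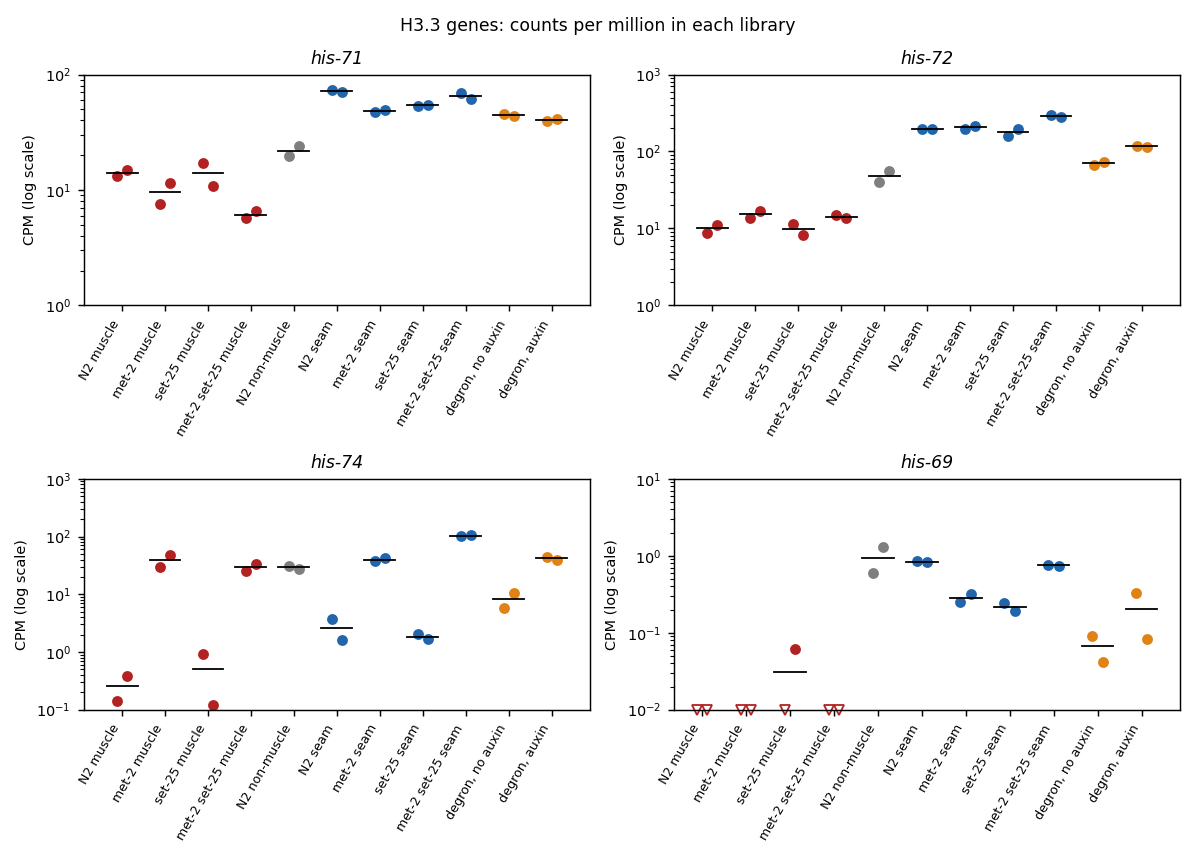
CPM on a log axis for the 4 H3.3 genes in each of the 22 libraries, 2 points per group with a line at the group mean (red muscle, grey non-muscle, blue seam cells, orange degron muscle) and open triangles at the lower edge for libraries with no count. In muscle *his-74* is at 0.122 to 0.909 CPM in N2 and *set-25* and at 24.9 to 47.8 CPM in *met-2* and the double mutant, while the other H3.3 genes stay within narrower ranges.

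The comparison of the mutants with N2 asks which genes respond in muscle to loss of H3K9 methylation. One member, *his-74*, rose in *met-2* muscle. It had 427 and 620 counts (30.1 and 47.8 CPM) in the *met-2* libraries against 2 and 5 counts (0.14 and 0.377 CPM) in N2. Both *met-2* libraries lay far above both N2 libraries, and their values overlapped those of N2 non-muscle cells (27.5 and 31.2 CPM). The fitted log2 change was 7.17 ± 0.596 (edgeR adjusted p = 1.5e-05). As a ratio of pooled CPM the change was 152-fold, with a 95% interval of 73.5 to 379 that covers counting error only. That count of 1 of 8 tested members compares with 2.24% of all genes called in this contrast (2.17% called higher).

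The other 7 tested members were not called in *met-2* muscle, and their unadjusted p values all exceeded 0.05. Of the main H3.3 genes, *his-71* was at 7.55 and 11.6 CPM against 13.2 and 14.9 in N2 (-0.59 ± 0.307), and *his-72* at 13.5 and 16.9 CPM against 8.80 and 11.2 (0.57 ± 0.275). Their groups did not overlap, which 2 libraries against 2 often show without a change. The edgeR adjusted p values were 0.506 and 0.464. Of the H1 genes, *his-24* (0.28 ± 0.250), *hil-2* (-0.01 ± 0.399), *hil-3* (0.40 ± 0.247) and *hil-4* (0.33 ± 0.542) had fitted log2 changes smaller than 2 SE, as had *htz-1* (0.45 ± 0.430). The gene *his-69* had no count in any of the 4 libraries.

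No member was called in *set-25* muscle, nor was any other gene (0% called by edgeR). At an unadjusted p under 0.05 there was 1 member, *hil-4*, which stood at 18.3 CPM in one *set-25* library and 5.36 in the other, against 4.40 and 4.83 in N2. DESeq2 called 0 members. Levels of *his-74* were 0.909 and 0.122 CPM, that is 11 and 2 counts, which overlap those of N2 (0.91 ± 0.855, adjusted p = 1). The pooled ratio of *his-74* was 1.80 with a counting interval of 0.666 to 5.31, so a rise of the size seen in *met-2* lies outside it.

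In *met-2 set-25* muscle 2 of 8 tested members were called, both higher, against 2.56% of all genes (2.36% called higher). The first was again *his-74*, with 24.9 and 34.0 CPM (362 and 438 counts), a fitted log2 change of 6.87 ± 0.596 against N2 (edgeR adjusted p = 1.9e-05) and a pooled ratio of 115 (55.5 to 287), and its call was kept without double mutant replicate 1, whose *set-25* level went against the label. Its values overlapped those of the *met-2* single mutant, and the double mutant did not differ detectably from it (-0.30 ± 0.381, edgeR adjusted p = 0.919). The second gene was *his-24*, at 79.1 and 70.9 CPM against 30.3 and 29.7 in N2 (1.38 ± 0.251, edgeR adjusted p = 0.00673). Both double mutant libraries exceeded all 6 libraries of the other muscle genotypes, whose highest value was 42.8 CPM in *met-2* replicate 1. Its call was lost without N2 replicate 1 (adjusted p = 0.0673) or 2 (0.0619), without double mutant replicate 1 (0.0345) or 2 (0.0285), and with the replicate number as a block (0.013), with fitted changes of 1.36 to 1.41.

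Levels of *hil-3* did not pass the threshold, at 79.2 and 67.8 CPM in the double mutant against 38.0 and 37.8 in N2 (1.01 ± 0.248, edgeR adjusted p = 0.0412). On the other side, *his-71* had 5.72 and 6.52 CPM, below all other muscle libraries (-1.14 ± 0.313, edgeR adjusted p = 0.0725). Across the 8 muscle libraries of the 4 genotypes, log2(CPM + 1) of *his-24* correlated with that of *hil-3* (Pearson r = 0.97) and inversely with that of *his-71* (r = -0.94). These are descriptions over libraries that share group means, and with *hil-2* the r of *his-24* was 0.37. The remaining members had adjusted p values of 0.329 to 0.909 in the double mutant, with *hil-2* at 16.6 and 6.44 CPM, *hil-4* at 7.51 and 2.64 CPM and *htz-1* at 5.72 and 6.75 CPM.

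Against the *set-25* single mutant the double mutant again had higher *his-74* (5.96 ± 0.548, edgeR adjusted p = 3.56e-05) and *his-24* (1.61 ± 0.254, adjusted p = 0.00254), with 2.28% of all genes called (2.13% higher). In this contrast *his-24* lost its call without *set-25* replicate 1 (adjusted p = 0.0183) or without double mutant replicate 1 (0.0134) or 2 (0.0106), and when only those groups were fitted (0.0137). The change of *hil-3* (1.18 ± 0.249, edgeR adjusted p = 0.0202) was not called, but was with DESeq2 (adjusted p = 0.000364) and without the low-count filter (4.16e-05). Against the *met-2* single mutant edgeR called no member and no gene (0% called). At an unadjusted p under 0.05 there were 2 members, *his-24* (1.10 ± 0.249, edgeR adjusted p = 0.226) and *hil-3* (0.61 ± 0.246), and DESeq2 called 0. The interaction term, which tests whether the double mutant departs from the sum of the single mutant effects on the log scale, was called for 0 members and 0% of all genes in muscle. The largest estimates there were -1.5 ± 0.763 for *hil-4* and 1.33 ± 0.353 for *his-24*. In edgeR 2 members had an unadjusted p under 0.05 and DESeq2 called 0.

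**Figure D2:**
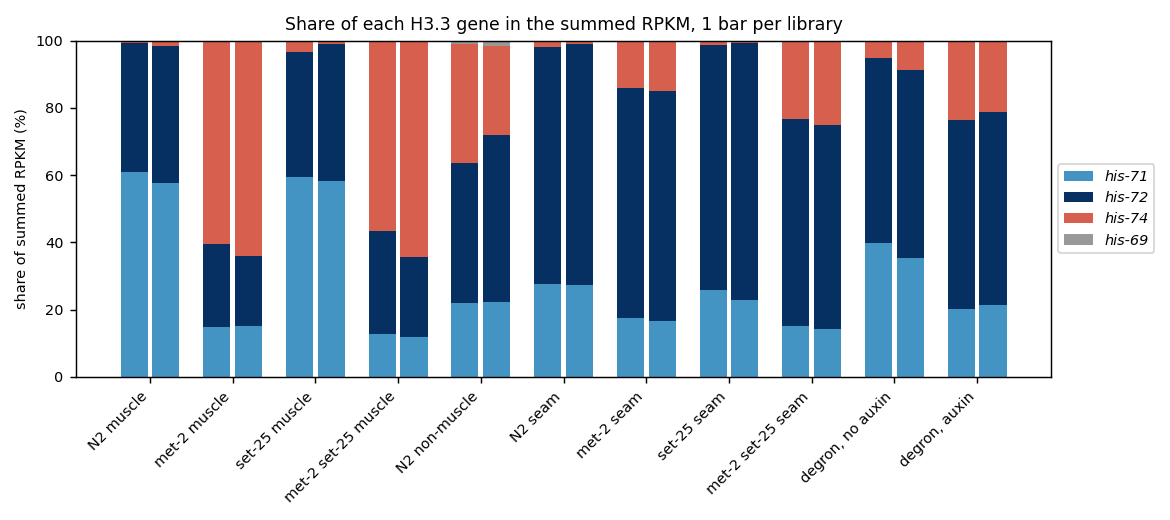
Stacked bars, 1 per library, of the share (%) that each H3.3 gene has in the RPKM summed over *his-71*, *his-72*, *his-74* and *his-69*. In muscle the *his-74* share is 0.665 and 1.51% in N2 and 56.6 to 64.4% in the 4 libraries of *met-2* and *met-2 set-25*.

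Since *his-74* was nearly silent in N2 muscle, its rise changed which H3.3 gene dominated. The gene *his-74* supplied 0.665 and 1.51% of the RPKM summed over the 4 H3.3 genes in N2 muscle, 3.25 and 0.670% in *set-25*, 60.5 and 64.2% where *met-2* was mutated and 56.6 and 64.4% where both genes were. In the same libraries the share of *his-71* was 61.0 and 57.6% in N2, with *met-2* at 14.7 and 15.1% and 12.6 and 12% in the double mutant. The summed RPKM of the 4 genes was 36.3 and 43.2 in N2 muscle, with *met-2* at 86.0 and 129 and 76.1 and 91.2 in the double mutant. These shares concern RNA, and the protein of each gene was not measured. In muscle, then, 1 gene accounted for most H3.3 RNA in the *met-2* mutants and was almost absent in N2 and *set-25*.

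Germline transcripts moved together with *his-74* in these libraries. The summed CPM of 10 germline markers was 27.6 to 42.5 in N2 muscle, 47.3 to 99.5 in *set-25*, 2034 to 2039 in *met-2* and 2179 to 2188 in *met-2 set-25*, and 6 of 10 were called higher in each of the last pair. The sum was mostly *glh-1*, a germ granule helicase, with a mean of 1791 CPM in *met-2* against 22.2 in N2. By contrast, *rme-2*, the yolk receptor of oocytes, had a mean of 1.25 CPM in *met-2* and 2.92 in N2, and *glh-4* 0.282 against 1.05. In the *met-2* libraries 1 marker was at 0 in 1 library. The part of germline cells in the *his-74* values was not tested.

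In the degron strain, *his-74* was also the member that changed when MET-2 was depleted with auxin. It stood at 5.72 and 10.6 CPM without auxin and at 45 and 39.4 CPM with it. The groups did not overlap, and the fitted log2 change was 2.30 ± 0.225 (edgeR adjusted p = 2.04e-05), or 5.23-fold by pooled CPM (counting interval 4.67 to 5.86). It was the sole call among 8 tested members, against 1.73% of all genes (0.913% called higher), and it was kept without each of the 4 libraries in turn. The level without auxin lay above that of N2 muscle (0.14 and 0.377 CPM), which belongs to another table and another strain, so this gap was not tested.

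The other H3.3 genes of the degron strain were not called. For *his-72* the values were 66.5 and 73.8 CPM without auxin and 118 and 116 CPM with it (0.65 ± 0.153, edgeR adjusted p = 0.0278). For *his-71* they were 45.4 and 44.0 CPM against 39.5 and 40.8 (-0.25 ± 0.166, adjusted p = 0.641). As a result the *his-74* share of H3.3 RPKM was 5.17 and 8.74% without auxin and 23.5 and 21.3% with it. The 4 H1 genes overlapped between the groups except for *hil-3* (11.8 and 18.2 CPM against 19.3 and 18.3), with adjusted p values of 0.717 to 0.985, and *htz-1* had 28.8 and 41.5 CPM against 46.6 and 43.8 (adjusted p = 0.574). The germline marker sum was 91.2 to 200 CPM without auxin and 453 to 496 CPM with it, 2 of 10 being called higher, and the sum of 10 hypodermis genes was 666 to 969 CPM against 259 to 271. None of these markers was tested as a source of the *his-74* difference.

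**Figure D3:**
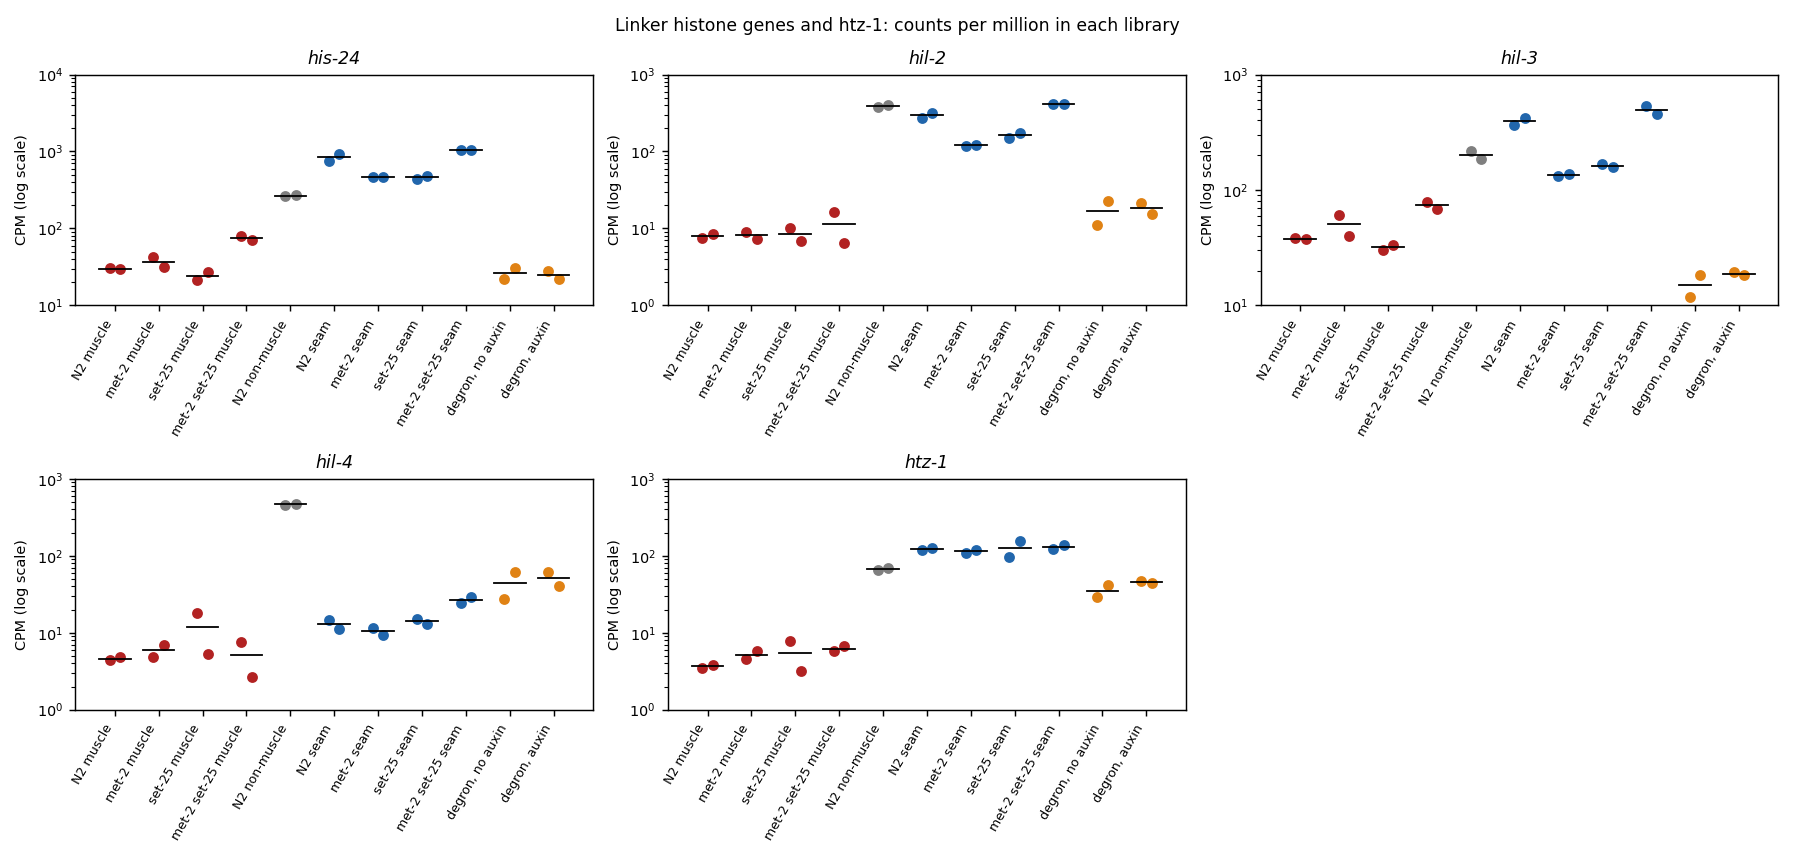
CPM on a log axis for the linker histone genes *his-24*, *hil-2*, *hil-3* and *hil-4* and for *htz-1* in each of the 22 libraries, 2 points per group with a line at the group mean (red muscle, grey non-muscle, blue seam cells, orange degron muscle). In seam cells *his-24*, *hil-2* and *hil-3* are lower in both single mutants than in N2, and the double mutant libraries lie above both N2 libraries.

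In seam cells the calls in the single mutants also included linker histone genes. In *met-2* seam cells 3 of 9 tested members were called, *his-74* higher and the H1 genes *hil-2* and *hil-3* lower, against 5.19% of all genes (2.08% called higher and 3.11% lower). In *set-25* seam cells *hil-3* was called lower, against 10.6% of all genes (10.3% called lower). In *met-2 set-25* seam cells *his-74* was the sole call, against 2.88% of all genes (2.16% called higher). Medians of all genes shifted on library totals by -0.14 (log2) for *met-2*, by -0.30 for *set-25* and by 0.26 for the double mutant, so the fitted values, which use TMM factors, are given throughout.

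The linker histone gene *hil-3* had the clearest fall. It stood at 362 and 423 CPM in N2 seam cells, at 133 and 136 CPM in *met-2* and at 167 and 159 CPM in *set-25*. All 4 single mutant libraries lay below both N2 libraries. Fitted log2 changes were -1.42 ± 0.134 in *met-2* (edgeR adjusted p = 0.000417) and -0.98 ± 0.132 in *set-25* (edgeR adjusted p = 0.00103). The *set-25* change is just under 2-fold in the fit and over 2-fold on library totals with the pseudocount (-1.26), so that the call ends if the fold threshold is set on the fitted value, and also if only those groups are fitted (adjusted p = 0.0104).

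For *hil-2* the same groups gave 275 and 316 CPM in N2, 118 and 122 CPM in *met-2* and 151 and 176 CPM in *set-25*. It fell in *met-2* (-1.18 ± 0.130, edgeR adjusted p = 0.000855), a call lost without *met-2* replicate 1 (0.0166) or 2 (0.0154), and was not called in *set-25* (-0.57 ± 0.128, adjusted p = 0.0113). Levels of *his-24*, the most abundant of these genes, were 758 and 934 CPM in N2, with *met-2* at 461 and 470 and *set-25* at 443 and 484. Neither change from N2 was called (-0.74 ± 0.143, edgeR adjusted p = 0.0105, and -0.58 ± 0.143, adjusted p = 0.0154). Without N2 replicate 1 the *met-2* change was called (adjusted p = 0.00775). The fourth H1 gene, *hil-4*, was far less abundant at 9.26 to 15.2 CPM in these 6 libraries and was not called in either single mutant. Its adjusted p values were 0.595 in *met-2* and 0.183 in *set-25*.

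In the double mutant, these genes did not stay low. The gene *his-24* reached 1036 and 1047 CPM, *hil-2* 416 and 409 CPM and *hil-3* 539 and 455 CPM, each above both N2 libraries on the CPM scale. Relative to other genes the double mutant did not differ detectably from N2, with fitted log2 changes of 0.05 ± 0.142, 0.23 ± 0.128 and 0.08 ± 0.131 (edgeR adjusted p = 0.864, 0.295 and 0.728). For *hil-4*, which had 24.5 and 29.5 CPM, the change was 0.81 ± 0.215 (edgeR adjusted p = 0.0456).

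Set directly against *met-2*, the double mutant was higher for 3 of 9 members: *hil-3* (1.51 ± 0.134, edgeR adjusted p = 0.000379), *hil-2* (1.41 ± 0.130, adjusted p = 0.000424) and *his-24* (0.79 ± 0.143, adjusted p = 0.00492), with 8.44% of all genes called (6.14% higher). Set against *set-25* it was higher for 4 of 9, namely *his-74*, *hil-3* (1.07 ± 0.132, edgeR adjusted p = 0.00031), *hil-2* (0.80 ± 0.129, adjusted p = 0.00117) and *his-24* (0.63 ± 0.143, adjusted p = 0.00629), with 21.3% of all genes called (19.5% higher). Calls of *his-24* were lost without any 1 of the compared libraries in both contrasts (adjusted p = 0.0273 to 0.0476 against *met-2* and 0.0158 to 0.0379 against *set-25*), and also without either *met-2* library in the second (0.0157 and 0.0158). The change of *hil-4* against *met-2* (1.01, edgeR adjusted p = 0.0104) was not called in the fit as reported. DESeq2 called it (adjusted p = 0.00241). In edgeR it was called on library totals (adjusted p = 0.00196), without the low-count filter (4.87e-05) and with only the groups compared (0.00925). It was also called without *set-25* replicate 1 or 2 (fitted 1.00 and 1.01). If the fold threshold was set on the fitted value, *his-24* was lost in both contrasts and *hil-2* in the second.

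**Figure D4:**
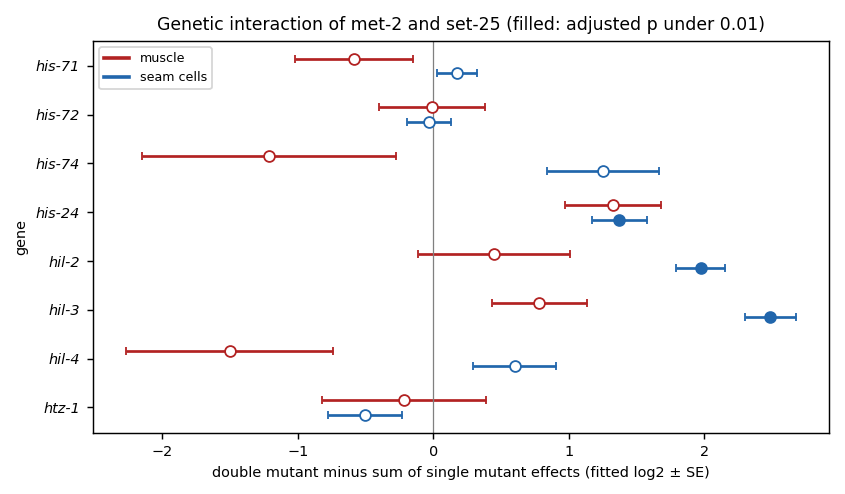
Estimate ± SE, on the fitted log2 scale, of the genetic interaction of *met-2* and *set-25* (the double mutant effect minus the sum of the single mutant effects) for the 8 members tested in both tissues, muscle in red and seam cells in blue, filled where the adjusted p is under 0.01. In seam cells *his-24* (1.37), *hil-2* (1.97) and *hil-3* (2.49) are filled, and no muscle estimate is.

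The interaction term put this departure from additivity to a test. In seam cells it was called for 3 of 9 members, all H1 genes and all positive: *hil-3* at 2.49 ± 0.188 (edgeR adjusted p = 4.73e-05), *hil-2* at 1.97 ± 0.183 (9.41e-05) and *his-24* at 1.37 ± 0.202 (0.000824). All 3 calls were kept without each of the 8 seam libraries in turn. Such interactions were common here, being called for 27.4% of all genes (16.3% with a positive sign). Among the other members the estimates were *his-69* 2.65 ± 0.909 (edgeR adjusted p = 0.042, on few counts), *his-74* 1.25 ± 0.414 (adjusted p = 0.0367), *hil-4* 0.60 ± 0.306 (0.141), *htz-1* -0.50 ± 0.272 (0.162), *his-71* 0.17 ± 0.149 (0.367) and *his-72* -0.03 ± 0.164 (0.896). On library totals alone, 6 members passed, *his-71*, *his-74* and *hil-4* being the additions, each positive. Without N2 replicate 2, *his-74* passed as well (adjusted p = 0.00362).

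Across the 8 seam libraries the 3 H1 genes tracked each other, with Pearson r of log2(CPM + 1) of 0.97 for *his-24* and *hil-2*, 0.98 for *his-24* and *hil-3* and 0.98 for *hil-2* and *hil-3*, and 0.22 to 0.33 for each of them with *his-74*. Even so, shares shifted: *his-24* made up 53.0 and 54.6% of the H1 RPKM in N2, with *met-2* at 63.1 and 63.0%, *set-25* at 56.4 and 57.4% and 50.6 and 53.2% in the double mutant. The share of *hil-3* was 26.1 and 25.5% in N2 and 18.7 and 18.8% in *met-2*. The summed H1 RPKM was 1579 and 1887 in N2, with *met-2* at 807 and 824, *set-25* at 868 and 930 and 2259 and 2173 in the double mutant.

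Other features of the seam libraries also differed between genotypes. The number of genes with at least 10 counts was 10927 and 11749 in N2, with *met-2* at 10804 and 11217, *set-25* at 9778 and 9810 and 12118 and 12898 in the double mutant. The sum of 10 hypodermis markers was 23955 to 26013 CPM in N2, 32155 to 32324 in *met-2*, 35685 to 38259 in *set-25* and 14054 to 17052 in the double mutant, and of 9 tested 1 was called lower in each single mutant and 2 in the double mutant, with at most 1 marker at 0 in a library. The sum was mostly the cuticle collagen gene *sqt-3*, with means of 16093 CPM in N2 and 11061 in the double mutant and, for *met-2* and *set-25*, of 24449 and 29681, whereas 7 of 9 markers had a negative fitted change in *met-2*, and *elt-3*, a hypodermal GATA factor gene, fell from a mean of 51.8 CPM in N2 to 10 in *met-2* and 3.57 in *set-25*. Intestinal markers summed to 163 to 254 CPM in N2, 81.2 to 161 in *met-2*, 43.6 to 63.5 in *set-25* and 533 to 737 in the double mutant, none being at 0 in any of these libraries, and 2 of 9 tested were called lower in *set-25*. Of 10 neuron markers 5 were called lower in *set-25* and 1 higher in the double mutant, with sums of 304 to 316 CPM in N2, 303 to 321 in *met-2*, 253 to 292 in *set-25* and 401 to 498 in the double mutant. Seam cell markers went both ways: in N2, *met-2*, *set-25* and the double mutant, *grd-10* had means of 1656, 961, 300 and 2783 CPM. Means of *wrt-2* were 1331, 1994, 2136 and 924 CPM. Of 10 seam cell markers 5 had a positive and 5 a negative fitted change in *met-2*. These counts were 7 and 3 in *set-25* and 3 and 7 in the double mutant. The part of these differences in the H1 values was not tested.

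Among the H3.3 genes of seam cells, *his-74* rose with loss of *met-2*. N2 libraries held 3.70 and 1.60 CPM of it and *set-25* libraries 2.02 and 1.67, while the *met-2* libraries reached 37.0 and 42.5 CPM and those of the double mutant 102 and 104. The *set-25* and N2 values overlapped, and the *met-2* and double mutant groups lay apart from these and from each other. Fitted log2 changes against N2 were 4.02 ± 0.295 in *met-2* (edgeR adjusted p = 0.00011) and 5.02 ± 0.302 in the double mutant (edgeR adjusted p = 3.74e-05), or 14.5-fold and 37.7-fold by pooled CPM (counting intervals 11.9 to 17.8 and 31.2 to 46.1). The change in *set-25* was -0.25 ± 0.336 (adjusted p = 0.61). Against *set-25* the double mutant was 5.27 ± 0.311 higher (edgeR adjusted p = 1.97e-05). Its difference from *met-2* was 1.00 ± 0.243 (edgeR adjusted p = 0.0169) and was not called, although DESeq2 gave 0.94 and an adjusted p of 0.00174 and edgeR called it without either N2 library (adjusted p = 0.00297 and 0.00351). Germline markers moved with *his-74* here too: their sum was 31.3 to 43.4 CPM in N2, 36.8 to 47.9 in *set-25*, 195 to 205 in *met-2* and 509 to 520 in the double mutant, none of the 10 being at 0, and 5 of 10 were called higher in *met-2* and 5 in the double mutant. Their part in the *his-74* values of seam cells was not tested.

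Unlike in muscle, *his-72* remained the main H3.3 gene. Its share of H3.3 RPKM was 70.4 and 71.6% in N2 seam cells, with *met-2* at 68.3 and 68.6%, *set-25* at 73.1 and 76.3% and 61.8 and 60.7% in the double mutant, where *his-74* supplied 23.0 and 24.8%. In CPM *his-72* was at 197 and 195 in N2, with *met-2* at 197 and 216, *set-25* at 161 and 194 and 301 and 279 in the double mutant, and no contrast among the 4 seam groups called it. The fitted changes against N2 were 0.20 ± 0.116, 0.14 ± 0.116 and 0.31 ± 0.116, with adjusted p values of 0.296, 0.377 and 0.126. Levels of *his-71* were 73.2 and 70.1 CPM in N2, with *met-2* at 47.5 and 49.0, *set-25* at 53.6 and 54.9 and 68.9 and 62.0 in the double mutant. Both single mutants and the double mutant lay below N2 in CPM, yet the fitted changes of -0.44 ± 0.106, -0.11 ± 0.106 and -0.38 ± 0.105 were not called (edgeR adjusted p = 0.0254, 0.452 and 0.0517).

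The last H3.3 gene, *his-69*, was sparse everywhere. It had 18 and 15 counts in N2 seam cells, with *met-2* at 5 and 6, *set-25* at 5 and 4 and the double mutant at 19 and 15. Pooled ratios to N2 were 0.338 (counting interval 0.154 to 0.687), 0.261 (0.110 to 0.557) and 0.907 (0.545 to 1.51), and edgeR called none of these changes (adjusted p = 0.179, 0.0888 and 0.719). In muscle it had 1 count in 1 of 8 libraries, and in degron muscle 2 and 1 counts without auxin and 8 and 1 with it.

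Levels of *htz-1* did not change detectably in any mutant. In seam cells it had 118 and 125 CPM in N2, with *met-2* at 109 and 118, *set-25* at 97.3 and 155 and 123 and 138 in the double mutant, and the groups overlapped except for the double mutant and *met-2*. Its fitted log2 changes against N2 were 0.03 ± 0.193, 0.33 ± 0.193 and -0.14 ± 0.192. In muscle they were 0.45 ± 0.430, 0.59 ± 0.430 and 0.83 ± 0.429, with larger errors at 50 to 94 counts per library. Adjusted p values ranged over 0.218 to 0.94 in seam cells and 0.369 to 1 in muscle.

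**Figure D5:**
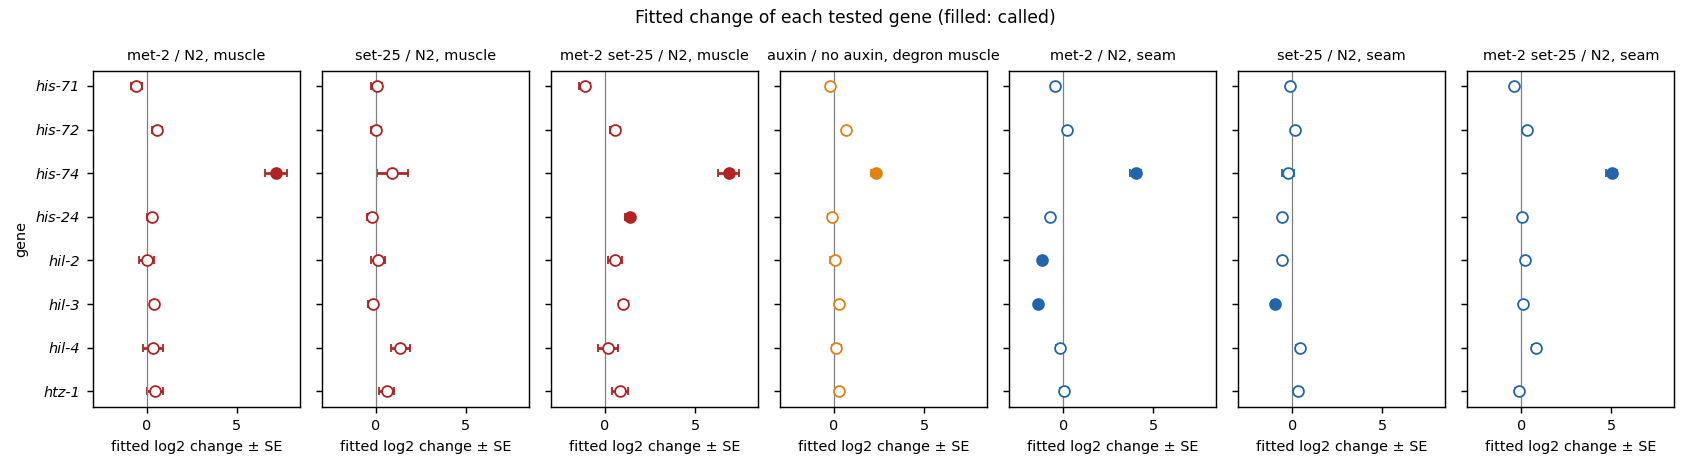
Fitted log2 change ± SE of 8 members in the 6 mutant against N2 contrasts and with auxin, 1 panel per contrast, filled where the gene was called. The gene *his-74* is filled in every panel except the *set-25* ones, at 7.17 and 6.87 in muscle, 2.30 with auxin and 4.02 and 5.02 in seam cells.

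Differences between tissues were tested in a joint fit of the 16 muscle and seam libraries, where strain and experiment follow the tissue and cannot be told apart from it. The *met-2* effect on *hil-3* was lower in seam cells, with a log2 difference (seam cells minus muscle) of -1.77 ± 0.303 (edgeR adjusted p = 0.00917, the only call among 9 members, against 0.504% of all genes, 0.404% being called lower). Of 16 fits that each left out a library, this call was kept in 3, those without *met-2* muscle replicate 2 or either *set-25* muscle library, and lost in 13 (adjusted p = 0.0131 to 0.0592), and it was lost when only those groups were fitted (0.0243) and with the replicate block (0.0227). For *his-74* the same difference was -3.11 ± 0.769 (edgeR adjusted p = 0.053, and 0.00344 with DESeq2). The *set-25* effect differed for 0 members (1.79% of all genes), with 1 member at an unadjusted p under 0.05 and 0 calls by DESeq2. The double mutant effect differed for 0 members (0.497% of all genes), with 5 members at an unadjusted p under 0.05 and 1 call by DESeq2, *his-24* (edgeR estimate -1.28 ± 0.306, adjusted p = 0.0461).

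Put in order over all 11 groups, mean *his-74* ran from N2 muscle (0.259 ± 0.168 CPM) and *set-25* muscle (0.516 ± 0.557), which overlapped, over *set-25* seam cells (1.84 ± 0.253) and N2 seam cells (2.65 ± 1.49), which overlapped, to degron muscle without auxin (8.14 ± 3.42). A higher block followed in which each group overlapped the next: N2 non-muscle (29.4 ± 2.60), *met-2 set-25* muscle (29.5 ± 6.40), *met-2* muscle (39.0 ± 12.5), *met-2* seam cells (39.8 ± 3.91) and degron muscle with auxin (42.2 ± 3.97). The *met-2 set-25* seam cells stood alone at 103 ± 1.43 CPM. In CPM every group with MET-2 removed or mutated was thus at or above the non-muscle level within the replicate spread, and every sorted muscle or seam group with MET-2 was below it. This order sets CPM over library totals side by side across separate experiments, strains and sorts, and it was not tested.

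The genes whose pattern was most like that of a member were found over 20 libraries after subtraction of the mean of each sort and table, among 7471 genes. Closest to *his-74* were *syp-1*, a synaptonemal complex gene (r = 0.992), T05B9.1 (r = 0.991) and *wago-4*, an Argonaute gene (r = 0.985). The genes closest to *his-24* were *hil-3* (r = 0.91), Y2H9A.4 (r = 0.89) and *sym-4* (r = 0.88), and *hil-3* was closest to *taf-10* (r = 0.91), *his-24* (r = 0.91) and *spk-1* (r = 0.91). For *hil-2* they were M110.3 (r = 0.88), *wip-1* (r = 0.87) and *ifet-1* (r = 0.87). Libraries of a group share their genotype and much of their composition, so these coefficients are descriptions.

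Related genes outside the 9 were examined as lists. Of 8 other H3.3, H1 and CENP-A genes, muscle allowed a test of 4 and seam cells of 6. The gene *cpar-1*, a paralog of the centromeric H3 gene *hcp-3*, was called higher in every contrast of *met-2* or *met-2 set-25* with N2. Its mean was 0 CPM in N2 muscle, 3.34 in *met-2* and 3.64 in the double mutant (edgeR adjusted p = 0.00405 and 0.00322), and 0.336 CPM in N2 seam cells, 7.71 in *met-2* and 11 in the double mutant (adjusted p = 0.00105 and 0.00111). Further H1 genes fell in seam cells: *hil-5* in *met-2* (-1.0 ± 0.139, edgeR adjusted p = 0.0025) and *set-25* (-1.0 ± 0.139, adjusted p = 0.00121), and *hil-1* (-3.10 ± 0.474) and *hil-7* (-2.66 ± 0.370) in *set-25*. These 3 genes were also called positive in the seam interaction term, at 2.05 ± 0.196, 3.81 ± 0.628 and 4.20 ± 0.495. Such calls were not particular to H1 genes. The *set-25* single mutant had 10.3% of all tested seam genes called lower, and the *met-2* single mutant 3.11%. The interaction reached its threshold for 27.4% of them, and 16.3% were positive.

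Counts of core histone genes, taken here as every other gene named *his-* with a number, fell in part as well. The list is not limited to S phase genes: *his-37* and *his-41* had means of 485 and 273 CPM in N2 muscle. Of 42 genes 22 could be tested in seam cells, and *met-2* and *set-25* each had 5 called lower, among them *his-60* (-2.13 ± 0.232 in *met-2*) and *his-32* (-2.39 ± 0.230 in *set-25*). The median fitted log2 change over the list was -0.83 and -1.09, beside -0.03 and -0.05 over all genes tested. None was called in the double mutant against N2, where 2 had an unadjusted p under 0.05, and the interaction term was positive for 7 genes and negative for 1, *his-35*. Over all genes tested 2.88% were called in the double mutant and 27.4% in the interaction term (16.3% with a positive sign). Many core histone genes are near-identical copies, so their counts of uniquely aligned reads are uncertain. In each N2 seam library 18 of the 42 had no count. Whether the counts of the others follow the level of core histone mRNA was not tested. In muscle 3 of 42 passed the filter, and edgeR called none in a mutant against N2 (0 at an unadjusted p under 0.05). Of the 14 S phase genes edgeR called none in a mutant against N2 in either tissue (0 to 5 per contrast at an unadjusted p under 0.05), and S phase sums were 1347 to 1458 CPM in N2 seam cells, 1310 to 1382 in *met-2*, 985 to 1797 in *set-25* and 1165 to 1272 in the double mutant.

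The machinery that places these histones was examined last. Of 13 H3-H4 chaperone and chromatin assembly genes, 1 was called in a mutant against N2: *nasp-1*, an H3-H4 chaperone gene, rose in *met-2* muscle (2.01 ± 0.313, edgeR adjusted p = 0.0024) and *met-2 set-25* muscle (1.66 ± 0.312, adjusted p = 0.00825), from a mean of 3.90 CPM in N2 to 16 and 11.9. Of 11 genes of H2A.Z exchange and TIP60-type acetylation edgeR called none in a mutant against N2 or with auxin (0 to 4 per contrast at an unadjusted p under 0.05). Between N2 muscle and non-muscle cells 9 of 13 and 4 of 11 were called lower in muscle, against 23.4% of all genes, with median fitted log2 differences of -2.47 and -0.86 beside -0.57 over all genes.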

How the data were processed

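RNA of 22 sorted-cell samples was measured by RNA-seq. The authors used QuasR with hisat2 to align Smart-Seq2 reads (genome ce10) and kept unique alignments over exons in the orientation of the annotation. The series text describes rRNA-depleted total RNA, and the protocol of the labels was taken to apply. The deposited values are raw counts per gene in 3 tables of 20392 genes, with the exonic width in base pairs, and all count columns were used. Reads shared with near-identical histone genes were not counted, and 2 non-coding genes overlap *his-24* on the opposite strand in WBcel235.

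From the counts, CPM (over library totals) and RPKM were computed. Tests used edgeR 4.0.16 (quasi-likelihood) in R 4.3.3, with TMM factors and filterByExpr, and p values were adjusted by Benjamini-Hochberg over all genes tested. Following the study's methods, a gene was called at an adjusted p under 0.01 and a change over 2-fold in log2(count scaled to the mean library + 8), which understates the change of low genes. Interactions needed the adjusted p alone. Genotypes of a tissue were fitted together, and the degron and N2 sort comparisons alone. The SE is the fitted log2 change divided by the square root of F. Counting ratios are of pooled CPM, with exact conditional 95% intervals. Reads have no molecular identifiers, so these cover counting error only. Depth was 11883702 to 24752059 counts. With 2 libraries a group, p values measure only the spread between these samples. The fits were tested on simulated data.

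All 9 members are named in every contrast. For members called in a mutant or auxin contrast the 3 most similar genes (mean of at least 5 CPM) are named, and at most 4 called genes of each other list. The members and lists were chosen with earlier results of these data known. Alternatives were DESeq2 1.42.0, library totals, no low-count filter, other thresholds, a replicate block, only the groups compared and each library left out. Of the annotation only chromosomes and gene overlaps were used, and no sequence is given.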

Additional observations from a re-analysis of the deposited data

Results flagged for a closer look

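In seam cells the double mutant effect differed from the sum of the single mutant effects, by the interaction term itself, for *his-24* (1.37 ± 0.202 on the fitted log2 scale), *hil-2* (1.97 ± 0.183) and *hil-3* (2.49 ± 0.188). The same term was called for 27.4% of all genes tested in seam cells (16.3% with a positive sign). The effect of *met-2* on *hil-3* differed between tissues in the joint test, at -1.77 ± 0.303 (seam cells minus muscle), where the tissues come from separate experiments. That call was lost in 13 of 16 fits without a library (adjusted p = 0.0131 to 0.0592), with the replicate block (0.0227) and with only the groups compared (0.0243) in edgeR.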

How the results depend on the processing

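No called change took the opposite sign under any alternative tried. The calls of *his-74* against N2, against *set-25* and with auxin held under all of them. Numbers of members called moved by over 1.5 times as follows. With an adjusted p under 0.05 they were 2 in *met-2 set-25* seam cells against N2 (1 in the report), 5 against *met-2* (3), 5 for the seam interaction (3) and 1 for the tissue difference of the double mutant (0). Without the low-count filter they were 1 for the double mutant against *met-2* in muscle (0), 2 against N2 in seam cells, 5 against *met-2* in seam cells, 2 for the tissue difference of *met-2* (1) and 1 for that of the double mutant. DESeq2 gave 5 against *met-2* in seam cells, 2 for the tissue difference of *met-2* and 1 for that of the double mutant. Library totals gave 5 against *met-2* in seam cells and 6 for the seam interaction. Fitting only the groups compared gave 1 for the double mutant against *set-25* in muscle (2), 0 in *set-25* seam cells (1), 5 against *met-2* in seam cells and 0 for the tissue difference of *met-2*. The fold threshold on fitted values gave 0 in *set-25* seam cells and 2 for the double mutant against *set-25* in seam cells (4). Smaller moves were 3 for the double mutant against *set-25* in muscle (adjusted p under 0.05, no filter, DESeq2), 2 against *met-2* in seam cells (fold on fitted values), 3 against *set-25* in seam cells (only the groups compared), 4 for the seam interaction (no filter), and 5 (fold on fitted values) and 7 (library totals) for N2 muscle against non-muscle (6). The cause was not tested.

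With single libraries left out, the ranges were 1 to 2 in *met-2 set-25* muscle against N2 and against *set-25*, 2 to 4 in *met-2* seam cells and for the double mutant against them, 3 to 4 against *set-25* in seam cells and for the seam interaction, 5 to 6 for N2 muscle against non-muscle and 0 to 1 for the tissue difference of *met-2*. Other member counts did not move.

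Replicate numbers were treated as names, since the deviations of same-numbered libraries correlated at -0.22 to 0.14. With the replicate block 1 member was called in *met-2 set-25* muscle against N2 (2) and 0 for the tissue difference of *met-2* (1), and no other member call changed. The auxin call of *his-74* also held with the numbers crossed, an alternative chosen after seeing the data, with 379 genes called in all, against 280 with the block and 197 without.

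Over all genes, calls ranged without single libraries from 140 to 256 in *met-2* muscle (205), 159 to 303 in *met-2 set-25* muscle, 135 to 890 in *met-2* seam cells (653), 714 to 1190 in *set-25* seam cells (1338), 170 to 480 in *met-2 set-25* seam cells (363) and 174 to 509 with auxin (197). Over the other alternatives they were 195 to 383, 209 to 468, 626 to 1447, 672 to 2278, 247 to 932 and 90 to 379. The double mutant against *set-25* had 133 to 402 in muscle (209) and 1622 to 4127 in seam cells (2686), and against *met-2* 0 to 56 (0) and 188 to 2182 (1063). The interaction had 0 to 52 in muscle (0) and 2045 to 5625 in seam cells (3447), *set-25* muscle 0 to 48 (0), and N2 muscle against non-muscle 2691 to 7240 (3948). Tissue differences had 27 to 609 for *met-2* (65), 28 to 999 for *set-25* (231) and 27 to 562 for the double mutant (64). Depth limits *his-69*, and *his-74* in N2 and *set-25* muscle, which rest on a few counts.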
